A study of Mus musculus with 2 samples.

Results

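The miR-26 family of the mouse consists of 3 microRNA (miRNA) genes, Mir26b, Mir26a-2 and Mir26a-1, each lying in an intron of a Ctdsp phosphatase gene. They were chosen by gene symbol in GENCODE release M21 and are 3 of the 2202 miRNA genes in the tables. The samples were adrenal glands, the paired endocrine glands above the kidneys, of male B6CASTF1/J mice at 10 days of age. This is a first-generation cross between the C57BL/6J and CAST/EiJ strains. Small-RNA reads were counted in 2 libraries of 1 group, which the labels call biological replicates of separately numbered males, with a single donor record for both. There is no treatment, mutant or second tissue, so the comparisons are between genes and between the replicates, and spread between replicates is given as SD with n = 2. Whether glands of several animals were pooled is not stated, and part of the spread may be technical.

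MiRNAs are short RNAs cut from hairpin precursors. One strand of the hairpin, the 5p or the 3p arm, is loaded into an Argonaute protein and pairs with messenger RNAs mainly through its seed, bases 2 to 8. Members of the miR-26 family share a seed and are known to repress Ezh2, the histone methyltransferase of Polycomb complex PRC2, and they are associated with differentiated cells. Their hosts Ctdsp1, Ctdsp2 and Ctdspl encode small phosphatases that act on the C-terminal domain of RNA polymerase II and take part in silencing of neuronal genes by the repressor REST. In zebrafish, miR-26b is known to repress its own host ctdsp2 during neuron formation.

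The mature arms are shown first because the counts turn on how alike they are. The sequences are those of RefSeq on build GRCm38.p6, where all 3 genes matched, written 5′ to 3′ with the seed in capitals.
miR-26b-5p: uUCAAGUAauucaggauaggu
miR-26a-5p, from Mir26a-2 and Mir26a-1 alike: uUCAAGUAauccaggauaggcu
miR-26b-3p: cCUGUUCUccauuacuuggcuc
miR-26a-2-3p: cCUGUUCUugauuacuuguuuc
miR-26a-1-3p: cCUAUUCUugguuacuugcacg
The 5p arms of all 3 genes carry the seed UCAAGUA, and among 1738 mature entries of the table these 3 were the only ones with it. The 5p arms of Mir26a-1 and Mir26a-2 were identical at all 22 positions. The 5p arm of Mir26b is 21 bases long and differed from them at 2 of the 21 positions compared, C11U and C21U, with the 26a base first and positions counted from the 5′ end. Both differences lie outside the seed. The 3p arms, which are the less used strands of this family in most tissues, differed more. Mir26a-1 and Mir26a-2 were alike at 16 of 22 positions of the 3p arm and differed at A4G, G11A, C19U, A20U, C21U and G22C, with Mir26a-1 first. The 3p arms of Mir26b and Mir26a-2 share the seed CUGUUCU, while that of Mir26a-1 has CUAUUCU.

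The hairpins show where the identity of the 26a copies ends. The 5p arm is in capitals.
Mir26b: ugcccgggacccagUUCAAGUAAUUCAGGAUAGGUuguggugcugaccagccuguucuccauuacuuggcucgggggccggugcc
Mir26a-2: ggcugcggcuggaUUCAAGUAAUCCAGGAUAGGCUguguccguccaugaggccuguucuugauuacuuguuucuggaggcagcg
Mir26a-1: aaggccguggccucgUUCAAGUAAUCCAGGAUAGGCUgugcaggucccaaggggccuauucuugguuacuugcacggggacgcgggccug
The hairpins of the 26a copies share a run of 25 bases that starts at the first base of the 5p arm and holds all 22 of its bases. A read of the mature 26a 5p arm is therefore the same letters from either gene, and can be assigned to one of them only if it extends beyond that run. Of the 22-base windows of the hairpin, 4 of 63 in Mir26a-2 and 4 of 69 in Mir26a-1 occur in the hairpin of the other copy. Of the 65 windows of 21 bases in Mir26b, 0 occur in any other of the 1005 hairpins of the table. Neither 3p arm of the 26a copies occurs in another hairpin of that table.

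**Figure D1:**
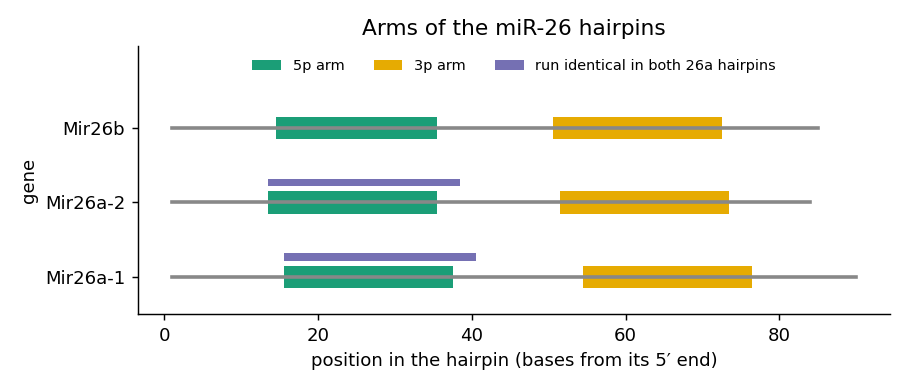
Map of the 3 hairpins to scale, with the position in bases from the 5′ end of each hairpin on the x axis and the genes as rows. Green bars are the 5p arms, yellow bars the 3p arms, and the thin purple bars the run of 25 bases that is identical in Mir26a-2 and Mir26a-1 and covers the whole 5p arm of both.

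On mm10, Mir26b (ENSMUSG00000065468.1) lies on the plus strand at chr1:74394310-74394394, in intron 4 of the 7-exon transcript Ctdsp1-201. Mir26a-2 (ENSMUSG00000065430.1) lies on the plus strand at chr10:126995530-126995613, in intron 5 of the 8-exon transcript Ctdsp2-202. Mir26a-1 (ENSMUSG00000065513.1) lies on the plus strand at chr9:119031796-119031885, in intron 5 of the 8-exon transcript Ctdspl-201. In all 3 hosts the intron is flanked by an upstream exon of 57 bases and a downstream exon of 93 bases, so the hairpins occupy the matching intron of the phosphatase genes. The intron itself is 564 bases long in Ctdsp1, 1946 bases in Ctdsp2 and 3283 bases in Ctdspl. Mir26b lies 2801 bases from the start of its host transcript, Mir26a-2 16813 bases and Mir26a-1 105343 bases. A shorter annotated transcript, Ctdsp2-201, has a first exon that begins at position 126995613 of chromosome 10, the last base of the Mir26a-2 hairpin. The hosts are on the same strand as their miRNAs, and 0 other annotated genes overlap any of the 3.

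The values are CPM (counts scaled to a library total of 1000000), from own-strand counts and the own-strand total of all miRNA genes. That total was 2843734 in replicate 1 and 3080062 in replicate 2. Reads that mapped to several places made up 27.5% and 25.9% of the reads in the files and are assigned to no gene. Intervals are exact (Clopper-Pearson) 95% intervals, which cover counting error only, since no molecular identifiers are recorded. The libraries differed by more than sampling noise, with a chi-square of 793 times its degrees of freedom over 433 genes, and were kept as 2 samples. The profile held Mir375, known from endocrine cells, at 34145 and 34383 CPM in replicates 1 and 2. No miRNA in the marker lists is specific to the adrenal cortex, so the label of the gland was not checked further than that.

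Mir26b was abundant in both adrenal libraries. It had 66752 counts in replicate 1 and 50797 in replicate 2, or 23473 CPM (interval 23298 to 23650) and 16492 CPM (16350 to 16635). Its mean was 19983 ± 4936 CPM (SD, n = 2), which put it at rank 16 of 2202 genes, with rank 13 in replicate 1 and rank 16 in replicate 2. Mir26a-2 had 84 and 772 counts, or 29.5 CPM (interval 23.6 to 36.6) and 250.6 CPM (233.3 to 269.0) in the same order. Its mean was 140.1 ± 156.3 CPM (SD, n = 2) at rank 188, with rank 259 in replicate 1 and rank 154 in replicate 2, and the SD was larger than the mean. Mir26a-1 had 23 and 42 counts, or 8.09 CPM (5.13 to 12.1) and 13.6 CPM (9.83 to 18.4). Its mean was 10.9 ± 3.92 CPM (SD, n = 2) at rank 305, with rank 318 in replicate 1 and rank 289 in replicate 2. The order Mir26b, Mir26a-2, Mir26a-1 was the same in both libraries, and the values of the 3 genes did not overlap. All 3 members were detected, meaning at least 1 CPM in both libraries, as were 20.0% of all miRNA genes. Taking 3 counts per library as the limit of a count of 0, replicate 1 would have allowed 1.05 CPM and replicate 2 0.974 CPM.

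**Figure D2:**
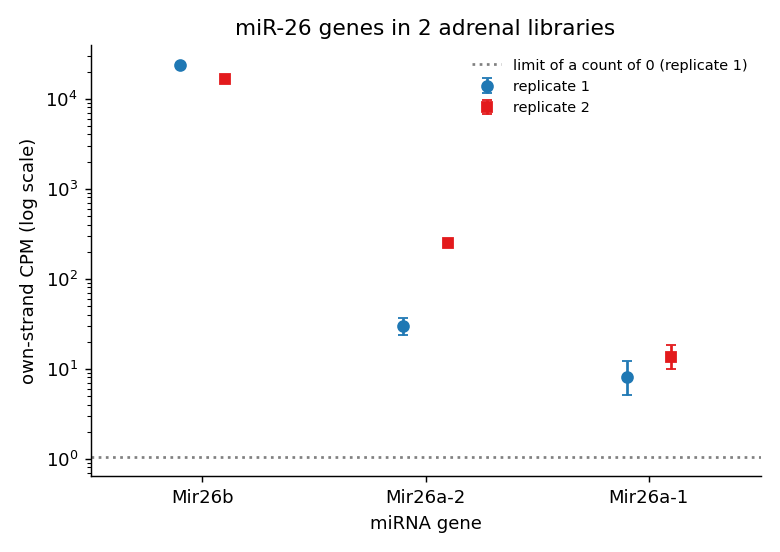
Own-strand CPM on a log scale for each miR-26 gene, with replicate 1 as circles, replicate 2 as squares and bars for the exact 95% counting interval (smaller than the symbol for Mir26b). The dotted line is the 1.05 CPM that a count of 0 allows in replicate 1. Mir26b lies at 23473 and 16492 CPM, Mir26a-2 spans 29.5 to 250.6 CPM and Mir26a-1 8.09 to 13.6 CPM.

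These counts do not depend on the strand column. Each member had the same count on its own strand and without regard to strand, and 0 counts on the opposite strand, in both libraries. Scaled to the smaller total without strand, Mir26b had 29684 CPM in replicate 1 and 19791 CPM in replicate 2. Gene counts do not separate the 5p from the 3p arm, so the arm behind each count is not known from these tables.

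The family held 2.35% (interval 2.33 to 2.37) of the miRNA counts in replicate 1 and 1.68% (1.66 to 1.69) in replicate 2, 2.01% ± 0.48 (SD, n = 2) on average. Nearly all of that share was Mir26b, which made up 99.8% of the assigned family counts in replicate 1 and 98.4% in replicate 2. The 26a copies together reached 37.6 CPM in replicate 1 and 264.3 CPM in replicate 2, which is 0.160% (0.131 to 0.193) and 1.58% (1.47 to 1.69) of the family. Mir26b was 624 times the summed 26a copies in replicate 1 (interval 516 to 761) and 62.4 times in replicate 2 (58.2 to 67.0). On the log2 scale this ratio was 9.29 and 5.96, with a mean of 7.62 ± 2.35 (SD, n = 2). Mir26b was thus above the copies in both libraries. The intervals of the libraries did not overlap, so the size of the excess differed between them by more than counting error. Hairpin lengths of 85, 84 and 90 bases for Mir26b, Mir26a-2 and Mir26a-1 are close, and per base of the hairpin the mean log2 ratio was again 7.62. No test was run, since 2 libraries cannot give a two-sided exact permutation p below 0.5.

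The ratio describes assigned reads, not the amounts of the mature miRNAs. Reads of the shared 26a 5p arm fit both copies and would fall among the reads mapped to several places, which the files do not divide by gene. That row held 2065487 reads in replicate 1 and 2308583 in replicate 2, or 30.9 and 45.4 times the count of Mir26b. Which part of it, if any, is miR-26a was not tested. A comparison of miR-26a with miR-26b as mature molecules cannot be made from these counts.

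Between the 26a copies, Mir26a-2 was above Mir26a-1 in both libraries. The ratio of Mir26a-2 to Mir26a-1 was 3.65 in replicate 1 (interval 2.28 to 6.07) and 18.4 in replicate 2 (13.5 to 25.7). On the log2 scale it had a mean of 3.03 ± 1.65 (SD, n = 2). The intervals exclude equal counts in each library and do not overlap each other. The imbalance of the reads assigned to the copies therefore also differed between the libraries by more than counting error. Reads that fit both copies are in neither count.

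**Figure D3:**
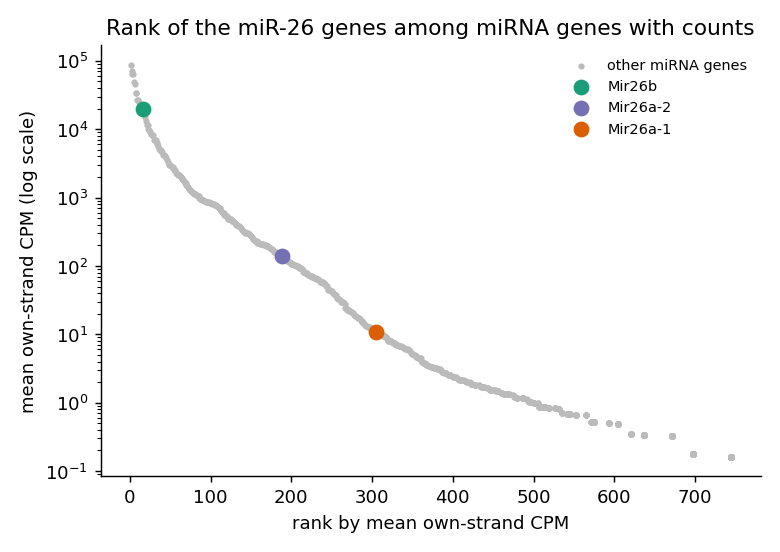
Mean own-strand CPM on a log scale against rank for miRNA genes with counts, as grey points, with the miR-26 genes in colour. Mir26b sits at rank 16 on the steep upper part of the curve, Mir26a-2 at rank 188 and Mir26a-1 at rank 305.

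Mir26b ranked between Mir335, from the imprinted Mest locus, and Mir127, from the imprinted Dlk1-Dio3 region. Mir335 had 24340 and 15710 CPM in replicates 1 and 2, a mean of 20025 ± 6103 CPM (SD, n = 2). Mir127 had 20667 and 19269 CPM, a mean of 19968 ± 989 CPM (SD, n = 2). Their means differed from that of Mir26b by 42.2 and 14.3 CPM, far less than the spread between replicates, and 8 other genes, at ranks 11 to 19, lay within 1 SD of it. By Euclidean distance of log2(CPM + 1) over the 2 libraries, the genes most like Mir26b were Mir335 (0.0875), Mir127 (0.290) and Mir23b (0.318). For Mir26a-2 the nearest genes were farther away, Mir200b at 0.755, Mir493 at 1.61 and Mir429 at 1.63. Mir200b had 39.4 CPM in replicate 1 and 160.7 CPM in replicate 2. By mean, Mir669c (141.1 ± 59.4 CPM) stood directly above Mir26a-2 and Mir3102 (139.7 ± 25.1 CPM) directly below it (SD, n = 2), and neither differed from it beyond its spread. Since that spread reaches below 0 CPM, 2055 other genes, at ranks 147 to 784 and including those with 0 counts, lay within 1 SD of Mir26a-2, and its place in the order is poorly fixed. For Mir26a-1 the nearest genes were Mir3097 (0.145), Mir5122 (0.190) and Mir325 (0.272). Mir3070a (11.3 ± 4.46 CPM) and Mir1968 (10.8 ± 0.611 CPM) bordered Mir26a-1 by mean (SD, n = 2), and 41 other genes at ranks 290 to 331 lay within 1 SD of it. Likeness over 2 libraries rests on 2 points per gene.

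The replicates differed most for Mir26a-2. The log2 ratio of replicate 1 over replicate 2, with 0.5 counts added to each, was 0.51 for Mir26b (interval 0.49 to 0.53), -3.08 for Mir26a-2 (-3.43 to -2.76) and -0.74 for Mir26a-1 (-1.55 to 0.01). Mir26b was thus higher in replicate 1 and Mir26a-2 higher in replicate 2, both by more than counting error, while the interval of Mir26a-1 includes no difference. Of all genes, 257 reached a mean of 100 counts. Among these the median absolute log2 ratio was 0.46, and 116 genes had a larger one than Mir26b. Mir26b therefore varied about as much as a typical gene of these libraries. Of the same 257 genes, 1 had a larger absolute ratio than Mir26a-2, namely Mir185 at 3.56, with 2224 counts in replicate 1 and 204 in replicate 2. Of the 2 members in this set, Mir26a-2 was at least 2-fold higher in replicate 2, as were 6.61% of the genes. Mir26a-1, with a mean of 32.5 counts, was below the minimum.

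**Figure D4:**
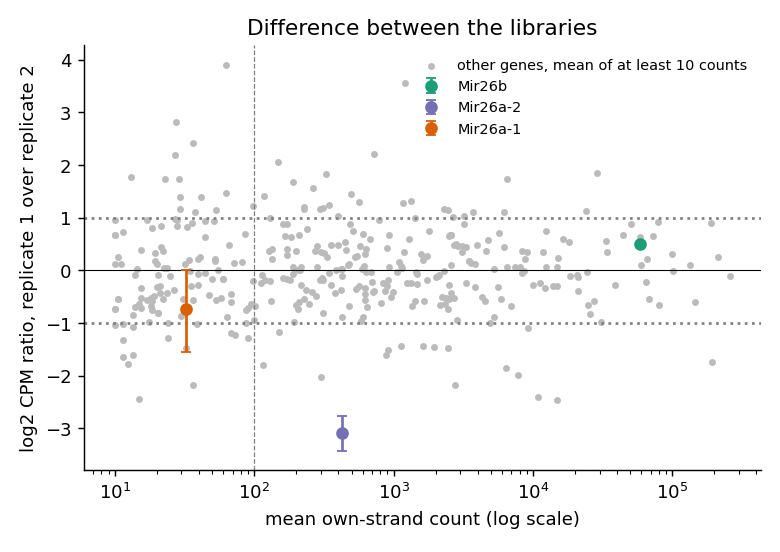
Log2 CPM ratio of replicate 1 over replicate 2 against the mean own-strand count (log scale) for genes averaging 10 counts or more, in grey, and for the miR-26 genes in colour with exact 95% counting intervals. Dotted lines mark 2-fold and the dashed line 100 counts. Mir26b (0.51) lies within 2-fold, and Mir26a-2 (-3.08) lies below every other gene shown.

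The libraries also differed in markers of other cell types. Mir122, the main miRNA of hepatocytes, took 2.94% of the counts in replicate 1 and 9.79% in replicate 2. Mir126a, of endothelium, took 8.43% and 4.52%. The 5 striated muscle genes together took 0.0920% and 0.331%, nearly all of it Mir206, with Mir133a-2 at 0 in both libraries. The Mir1a and Mir133a genes of this list are pairs of copies. Reads that fit both genes of a pair are in no count, so their low counts do not show absence. The 3 red cell genes took 0.0720% and 0.0322%, but one of them, Mir486, went the other way with 17.2 and 42.2 CPM. The 3 leukocyte genes took 0.0826% and 0.129%, a difference that came from Mir150 at 291.9 and 786.3 CPM, while Mir142 had 390.3 and 367.5 CPM and Mir223 143.8 and 140.6 CPM. The smooth muscle and fibroblast genes Mir143 and Mir145a summed to 3.86% and 3.20%, and the 4 endocrine genes, Mir375 and 3 of the miR-7 family, to 3.99% and 3.78%. The part of these differences in the values of the miR-26 genes was not tested. In a whole gland, fewer cells of a type and less of an RNA per cell cannot be told apart.

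Other miRNAs with several genomic copies were set beside the 26a pair. Of 1018 genes matched to the RefSeq table, 92 had a mature arm identical to an arm of another gene, here called multi-locus, and 926 did not. Multi-locus genes were detected in 54.3% of cases (50 genes) and single-locus genes in 36.9% (342 genes). The median level of the detected genes was 68.5 CPM for multi-locus and 91.4 CPM for single-locus genes. Of the single-locus genes, 20 had a mean of at least 10000 CPM, Mir26b among them, and of the multi-locus genes 0 did. Multi-locus genes summed to 1.08% of the counts in replicate 1 and 1.22% in replicate 2, against 81.9% and 74.1% for the single-locus genes. Reads that fit several copies are in no count, so these levels and shares describe assigned reads. The part of such reads in the difference between the classes was not tested. The highest of the 92 multi-locus genes were Mirlet7f-2 at 2901 ± 16.8 CPM and Mir92-1 at 1970 ± 515 CPM (SD, n = 2). Mir26a-2 was at rank 19 of the 92 and Mir26a-1 at rank 44. Of the 92 genes, 38 had 0 counts in both libraries, so these ranks include many genes without counts. The mean of Mir26a-1, 10.9 CPM, was below the median of 68.5 CPM of the detected multi-locus genes, and that of Mir26a-2, 140.1 CPM, was above it. In the differences between the libraries the classes were similar, with a median absolute log2 ratio of 0.45 over 29 multi-locus genes and 0.47 over 206 single-locus genes that reached a mean of 100 counts. Of these 29 multi-locus genes 4 were at least 2-fold apart, Mir26a-2 with them, and of the 206 single-locus genes 35 were.

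Families that hold both kinds of gene were then compared. Here a copy was a gene with a mature arm that occurs whole in the hairpin of another gene. A gene whose hairpin holds a whole mature arm of another gene was also a copy. This definition was chosen after the data were seen, and Mirlet7a-2 counts as a copy under it. Of the 17 single-locus genes in 9 such families, 15 were above the summed copies of their family in both libraries, Mir26b among them. The others were Mir195a and Mir98, which had 4497 and 3543 CPM against 4384 and 4949 CPM for the let-7 copies. In 8 of the 9 families, miR-26 included, the single-locus relative with the highest mean was above the summed copies in both libraries. Taking the highest relative favours a positive ratio in families with several of them, whereas miR-26 has 1. For miR-26 the log2 ratio was 9.29 in replicate 1 and 5.96 in replicate 2. The next was the family of Mir107, which (3190 and 2459 CPM) stood over Mir103-2 (48.5 and 41.6 CPM) and Mir103-1 (8.09 and 4.55 CPM), at 5.82 and 5.74. In the miR-29 family, Mir29a (1112 and 788 CPM) stood over Mir29b-1 (12.0 and 14.6 CPM) and Mir29b-2 (8.44 and 6.17 CPM), at 5.77 and 5.25. For Mir30e over Mir30c-2 and Mir30c-1 the ratio was 5.23 and 3.18, although Mir30a was above Mir30e in replicate 2. For Mirlet7g over 6 let-7 copies it was 4.16 and 3.73. The ratio was 3.40 and 3.42 for Mir7b over Mir7-1 and Mir7-2, and 3.19 and 3.13 for Mir125a over Mir125b-1 and Mir125b-2. The gap was small for Mir181c over the 4 genes of miR-181a and miR-181b, at 1.02 and 0.27. The exception was the family of Mir195a, where that gene over Mir16-1 and Mir16-2 gave -0.28 in replicate 1 and 0.16 in replicate 2. Mir195a was the only relative taken there. Mir15b, which lies next to Mir16-2, was not compared and had 1092 and 2179 CPM, against 901 and 960 CPM for the summed copies. The exception, and with it the counts of 15 of 17 genes and 8 of 9 families, depends on which relatives were taken. The miR-24 genes have no single-locus relative, and Mir24-2 reached 275.3 and 112.3 CPM against 51.3 and 81.5 CPM for Mir24-1. In replicate 2 the ratio of miR-26 differed less from that of Mir107 than it did between its own libraries, so the size of its lead rests on replicate 1. As for miR-26, reads that fit several copies are in none of these sums, and their part in the gaps was not tested.

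**Figure D5:**
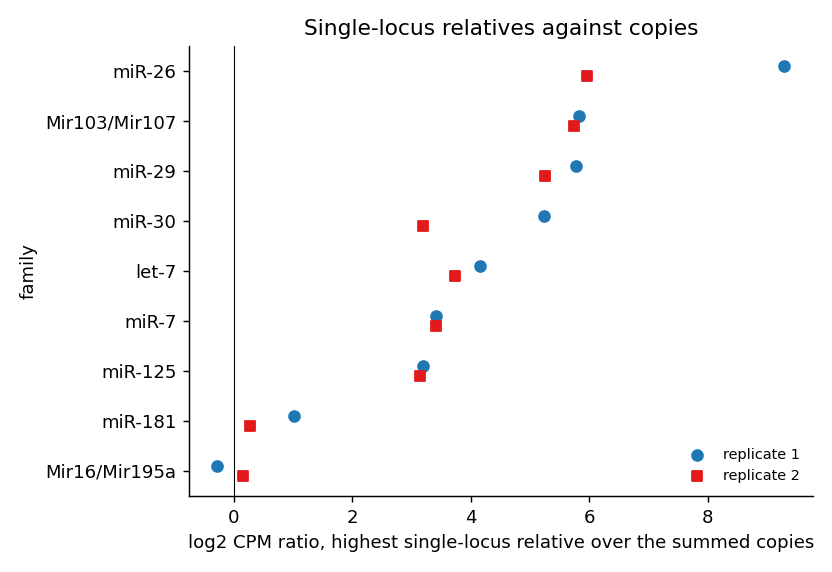
Log2 CPM ratio of the single-locus relative with the highest mean over the summed multi-locus copies in 9 families, with replicate 1 as circles and replicate 2 as squares. Points right of 0 mean that the single-locus gene had more assigned reads. miR-26 is farthest right in replicate 1 (9.29) and has the widest gap between its libraries, and the family of Mir195a lies on both sides of 0.

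Among the listed miRNAs known to share targets or a cellular role with miR-26, Mir26b was a leading gene. Its place depends on which genes were listed. Of 13 miRNA genes associated with repression of Ezh2, 9 were detected (69.2%, beside 20.0% of all 2202 genes) and 3 had 0 counts in both libraries. The median of the list was 140.1 CPM, which is the mean of Mir26a-2 itself, whose libraries lay far apart, and the median over all genes was 0 CPM. Mir26b was the highest, above Mir98, of the let-7 family, at 4020 ± 674 CPM and Mir214, of mesenchymal cells, at 1886 ± 287 CPM (SD, n = 2). Mir101b, a well-known repressor of Ezh2, had 870 ± 282 CPM. The miR-26 genes held 73.5% of the summed mean CPM of that list. Mir98 was the only let-7 gene on it. Mirlet7g, Mirlet7b and Mirlet7i, with means of 72075, 48370 and 45445 CPM, were not on it and were above Mir26b in both libraries. Mirlet7d was above Mir26b in replicate 2 only, and Mirlet7e and the let-7 copies were below it in both. The first place of Mir26b and the share of 73.5% therefore hold only for the genes listed.

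Of 18 genes that restrain entry into the cell cycle, all 18 were detected, beside 20.0% of all genes, with a median of 800.4 CPM. Mir26b was the fourth of them, after Mirlet7g (72075 ± 8817 CPM), Mirlet7b (48370 ± 14027 CPM) and Mir322 (27157 ± 11740 CPM). Of the let-7 family this list holds only Mirlet7a-1, Mirlet7b and Mirlet7g. Mirlet7i (45445 ± 2426 CPM) is not on it and was above Mir26b in both libraries, so this place holds only for the genes listed. Mir26a-2 was at place 15 and Mir26a-1 at place 18, the lowest. Of 12 neuronal miRNAs linked to REST, the repressor with which the Ctdsp phosphatases act, 6 were detected (50.0%) and 4 had 0 counts in both libraries, with a median of 4.62 CPM. Mir132 (790 ± 202 CPM) and Mir137 (611 ± 218 CPM), both of neurons, led that list (SD, n = 2), followed by Mir218-2 and Mir212, and its sum was 0.155% ± 0.011 of the counts. Of 40 genes in pairs of copies listed by name, 36 were detected (90.0%), with a median of 78.2 CPM, and Mir26a-2 was at place 17 and Mir26a-1 at place 31. The lists hold mostly well-studied miRNAs, and their shares of detected genes are given as a description. Several of them hold genes with near-identical copies, and reads that fit several places are in no count. The detected genes, the counts of 0, the medians and the order within a list therefore describe assigned reads.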

How the data were processed

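Small-RNA libraries of adrenal glands were sequenced from total RNA. Each deposited table holds raw counts for miRNA genes, made by the authors on build mm10 with GENCODE M21 according to its description. The aligner was not given in the sources used here, nor was the counter. The strand columns were told apart by their values. Column 3 (own strand) was the main count and column 2 (without strand) a check. The 4 rows of reads not assigned to genes stayed out of totals. All 2202 identifiers matched GENCODE M21.

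CPM, intervals and ratios (0.5 counts added) were computed with scipy 1.17.1 and pandas 2.3.3 under Python 3.11.15, and tested on simulated data. Detection meant 1 CPM in both libraries, and ratios were set beside those of genes averaging 100 counts or more. TMM factors (edgeR 4.0.16), DESeq2 1.42.0 size factors and totals without Mir122 were alternatives. In the families, copies were genes whose mature arm occurs whole in the hairpin of another gene, and the genes whose hairpin holds such an arm. The genes Mir30b and Mir30d were not matched to the RefSeq table. Named genes were the members, their 3 nearest genes and neighbours by rank, up to 4 leading genes per list, family relatives and markers. Mir185 was named after its values were seen. Members, families and lists were chosen with earlier results of these data known. With 1 group, no test between groups was made. The result of 1 further list is not reported here.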

Additional observations from a re-analysis of the deposited data

Results flagged for a closer look

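Reads mapped to several places, which no comparison above uses, made up 27.5% of replicate 1 and 25.9% of replicate 2. This signal is far above what a count of 0 allows, and it is the row where reads of the arm shared by Mir26a-2 and Mir26a-1 would be found. Its content by gene is not in the tables, and its share of miR-26a was not tested. Groups of 2 libraries are too small for a check of single outlying values.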

How the results depend on the processing

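Of 86 alternatives, 79 stayed within the spread between replicates, within the counting interval for differences between the libraries, or within 1.5 times for counts, and 0 reversed a sign. Leaving out a replicate stays within the spread of a mean of 2 by construction and says nothing about stability. The family share was 2.49% with counts without strand, against 2.01%, since the total is smaller there. The log2 ratio of replicate 1 over replicate 2 of Mir26b was 0.57 with TMM factors, 0.48 with DESeq2 size factors, 0.40 without Mir122 in the total, 0.46 without Mir122 and Mir126a, and 0.58 without strand, against 0.51. It moved because its counting interval is narrow at this depth, and it was positive throughout. That of Mir26a-2 stayed negative in every alternative, with -3.18 when Mir122 was left out of the total. Genes at least 2-fold apart were 16.7% of those with a mean of 100 counts, 19.4% at 10 counts and 41.4% of all genes with a count. The totals without both Mir122 and Mir126a, and copies defined by a match in the hairpin, were added after the data were seen. No paired analysis was possible because there is 1 group. Depth limits Mir26a-1 most, with 23 and 42 counts.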
